A study of Arabidopsis thaliana with 12 samples.

Results

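Described here are genes whose transcript signal fell at each of 3 successive DNA content doublings in Arabidopsis root nuclei sorted by a cortex reporter. They are 65 of the 13513 probe sets that the platform's annotation ties to a single gene, which is 0.481% of them. The members were chosen by their measured values: the mean of 3 arrays had to drop by at least 0.2 log2 from 2C to 4C, again from 4C to 8C and again from 8C to 16C, and the highest 16C array had to lie below the lowest 2C array. No member was lost to the last condition, since 65 probe sets met the 3 steps alone, and the limit of 200 members was not reached. Because the rule used all 4 classes, the falls themselves are given as a description and carry no test.

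All samples were nuclear RNA from roots of 5-day-old Col-0 seedlings kept in continuous light, and all 4 groups carried the same pCO2:YFP-H2B reporter, a yellow fluorescent histone H2B driven by the promoter of the cortex gene CO2. Roots cut off below the hypocotyl were pooled, their nuclei were released by chopping, and nuclei with reporter fluorescence were sorted into the groups 2C, 4C, 8C and 16C, with 3 arrays labelled as biological replicates in each. In the labels the groups differ in DNA content alone, and the cells that the promoter marks along the whole root set what the groups can stand for. About 200000 nuclei per class gave 45 to 100 ng of RNA, which was amplified in consecutive rounds before hybridisation to ATH1 arrays. The values are log2 signals that the authors brought to a common distribution, so a change in total RNA per nucleus cannot be seen in them, and a smaller share of cells that transcribe a gene cannot be told apart from less RNA in each cell.

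A plant cell that enters the endocycle copies its nuclear DNA again and again without dividing, and its DNA content doubles with every round. In the root, cortex cells leave the dividing tip, elongate and mature while their DNA content rises, so that 2C and 4C nuclei come largely from younger cells and 8C and 16C nuclei from older ones. Ploidy class and cell age therefore cannot be told apart in this design.

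Most falls were moderate and spread over several steps. The 16C mean lay below the 2C mean by a median of 1.18 log2 over the members, with a range of 0.77 to 3.80 in size, whereas the median 16C minus 2C difference of all single-gene probe sets was 0.05. As a fold, the 2C signal was 2.27 times the 16C signal at the median, from 1.71-fold to 13.9-fold. The fall reached 1 log2 in 48 members, 1.5 log2 in 17 and 2 log2 in 4. By step, the medians of the members were -0.39 from 2C to 4C, -0.43 from 4C to 8C and -0.30 from 8C to 16C. Large drops were fewest at the last step: a drop of at least 0.5 log2 was found in 21 members at the first step, in 26 at the second and in 8 at the third. The largest of the 3 steps was the first in 22 members, the second in 29 and the third in 14.

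**Figure D1:**
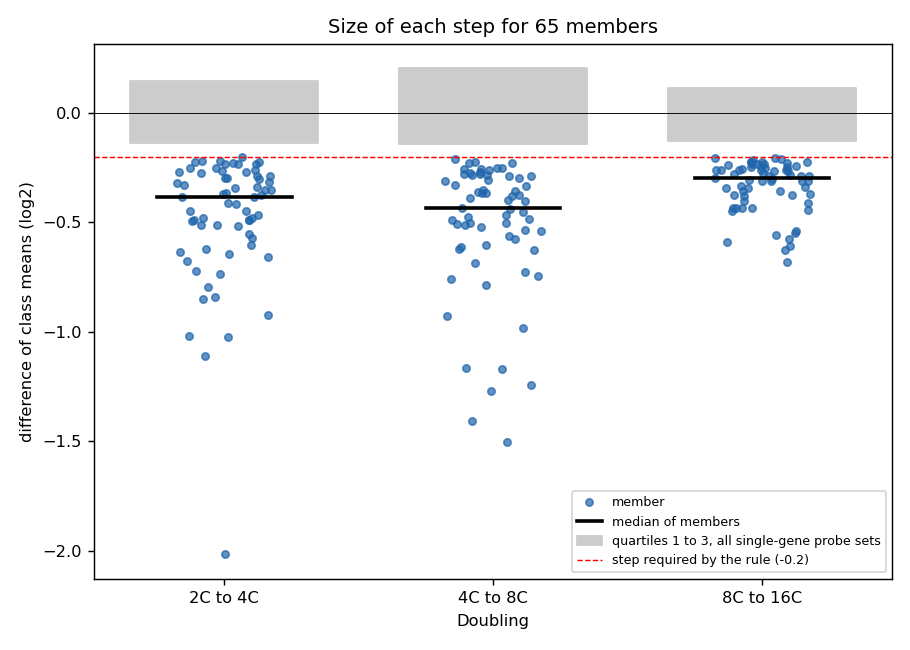
Differences of class means (log2, vertical axis) at the 3 doublings (horizontal axis) for the 65 members, with the median of the members as a black bar, the range from the first to the third quartile of all single-gene probe sets as a grey band and the required step of -0.2 as a dashed line. The members' medians are -0.39, -0.43 and -0.30, and the last step has the shortest tail, with 8 members at or below -0.5.

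The array-by-array values show the spread behind the class means, whose order was fixed by the rule. Averaged over the 65 members, the signal was 8.28, 8.12 and 7.71 on the 2C arrays and 7.72, 7.67 and 7.27 on the 4C arrays. It was 7.04, 6.99 and 7.09 on the 8C arrays and 6.71, 6.69 and 6.71 on the 16C arrays. Between the arrays of neighbouring classes there was 1 overlap: the lowest 2C array, replicate 3, lay just under the highest 4C array. Spread narrowed with ploidy, from a median SD of 0.42 in 2C to 0.28 in 4C, 0.21 in 8C and 0.18 in 16C, and over all single-gene probe sets from 0.18 to 0.17, 0.15 and 0.12. The SD was largest in 2C for 40 of the 65 members, and in 2C for 37.7% of all single-gene probe sets. Members were also brighter than most genes, with a median signal over all arrays of 7.22 against 5.03. Probe sets near the low end of the scale have little room for the required falls, so this is not read as a trait of the members. Among the dimmest 40% of probe sets were the 2C mean of 0 members and the 16C mean of 8.

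**Figure D2:**
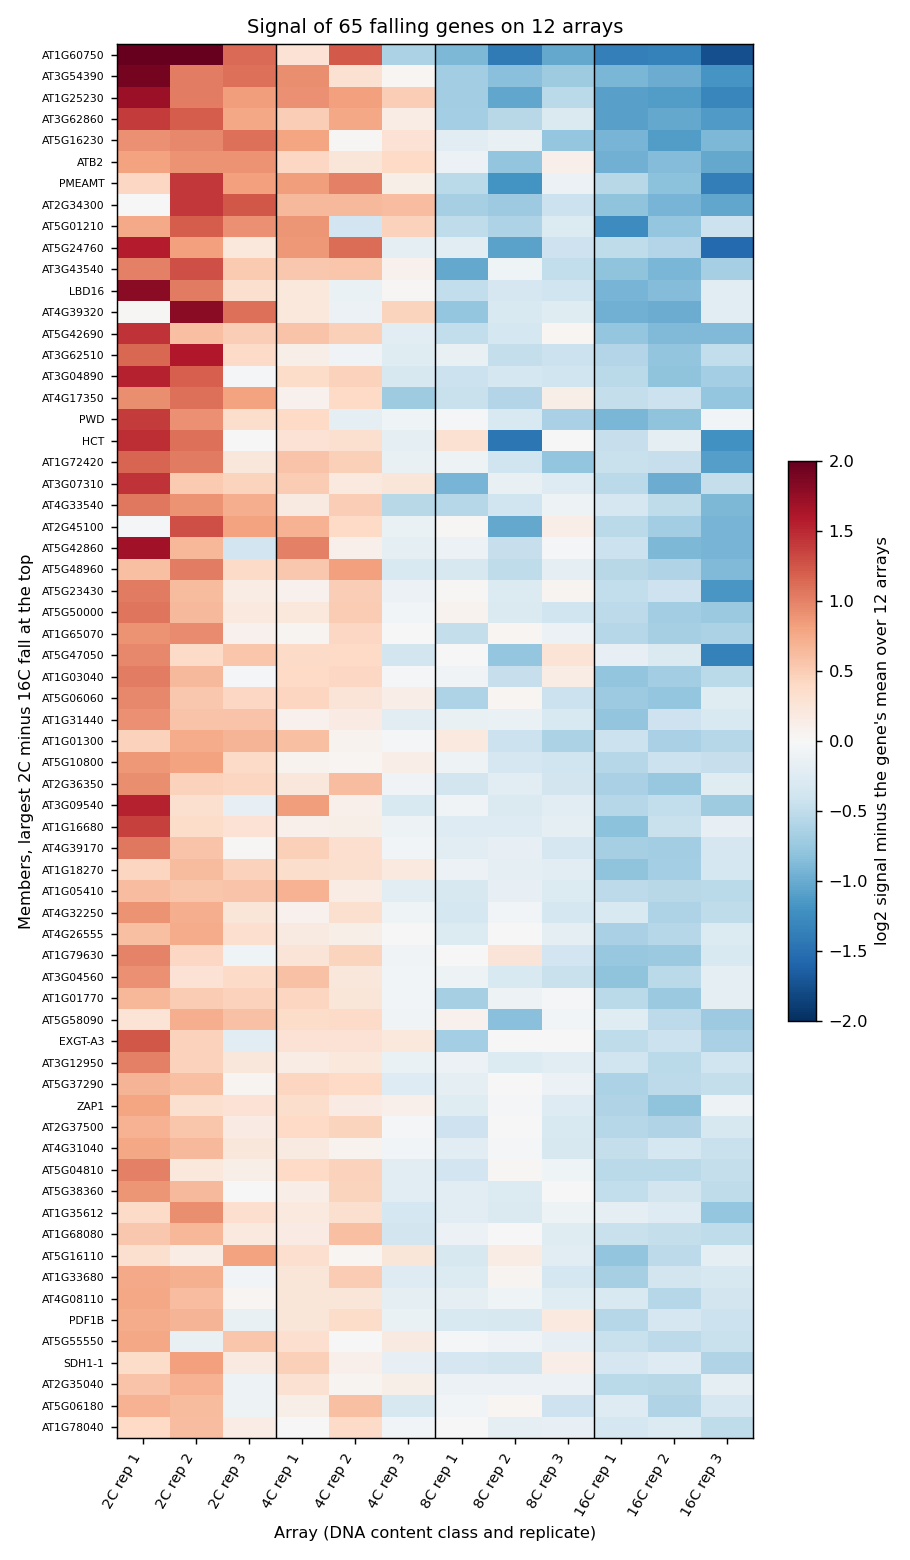
Log2 signal of each of the 65 members (rows, largest fall at the top) on each of the 12 arrays (columns, by DNA content class and replicate), as the difference from the gene's mean over the 12 arrays, coloured red above and blue below it and capped at 2 in either direction. Red gives way to blue between 4C and 8C, and the third 2C and 4C arrays are paler than the others of their class.

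A pair of libraries stood apart from their replicates in these genes. The third 2C array was the lowest of its class in 49 of 65 members, and the third 4C array was the lowest of its class in 54. At 8C and 16C no array held more than 26 of the lowest values. In the opposite sense, the arrays of 16C replicates 1 and 2 were unusually alike, with a correlation of 0.996 over all probe sets against 0.937 to 0.983 for the other pairs within a class. With these 2 arrays averaged into 1, 58 probe sets met the rule, 56 of them members.

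Neighbouring classes were fully separated in only part of the members. From 2C to 4C, all 4C arrays lay below all 2C arrays in 16 members, and the same was true of 7.38% of all single-gene probe sets. From 4C to 8C the classes did not overlap in 26 members (12.8% of all single-gene probe sets), and from 8C to 16C in 31 (10.5%). Since the rule used the same arrays, nothing is read from these shares. The third 2C array decided much of the first count: without it, 43 members had separate 2C and 4C values, and the share over all single-gene probe sets was 14.5%. All 3 steps were free of overlap in 6 members, 2 steps in 12, a single step in 31 and no step in 16.

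The 6 members whose 12 arrays were completely ordered by class were AT3G54390, AT5G16230, ATB2, AT5G10800, AT1G18270 and AT4G26555. Over all single-gene probe sets 7 had this full order, or 0.0518%. In AT1G18270 the 2C arrays read 11.05, 11.24 and 11.08, the 4C arrays 10.97, 10.94 and 10.81, the 8C arrays 10.50, 10.42 and 10.40, and the 16C arrays 9.81, 9.94 and 10.26. This is the brightest of the 6, and its fall of 1.12 log2 came mostly after 4C. In AT4G26555 they read 8.46, 8.59 and 8.19 in 2C, 8.02, 7.97 and 7.85 in 4C, 7.58, 7.84 and 7.66 in 8C, and 7.21, 7.28 and 7.57 in 16C, where the 4C and 8C classes almost touched. AT5G10800 was near the low end of the scale throughout, at 5.24, 5.17 and 4.74 in 2C and 3.79, 3.92 and 3.89 in 16C.

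An established symbol is carried by 9 members in the gene table, and the other 56 are known there only by their locus code, so that functions can be given for the 9 alone. The share of members with a symbol, 13.8%, was close to the 11.5% of all single-gene probe sets. Their roles span the cell wall and phenolic metabolism (EXGT-A3, HCT), lipid precursors (PMEAMT), transcription (LBD16, ZAP1), starch (PWD), organelle protein and energy metabolism (PDF1B, SDH1-1) and an oxidoreductase (ATB2).

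EXGT-A3 (AT2G01850), also named XTH27, encodes a xyloglucan endotransglucosylase/hydrolase, an enzyme that cuts and rejoins the xyloglucan chains between cellulose fibrils of the wall. It was among the brightest members, at 12.07, 11.29 and 10.60 in 2C, 11.11, 11.11 and 11.04 in 4C, 10.15, 10.83 and 10.82 in 8C, and 10.32, 10.40 and 10.18 in 16C. The 2C and 4C arrays overlapped, as did 8C and 16C, and the 2C mean was 2.02 times the 16C mean. HCT (AT5G48930) encodes a hydroxycinnamoyl transferase of the phenylpropanoid pathway that leads to lignin monomers. Its values were 10.12, 9.74 and 8.62 in 2C, 8.92, 8.96 and 8.44 in 4C, 8.94, 7.20 and 8.65 in 8C, and 8.18, 8.44 and 7.42 in 16C. Every neighbouring pair of classes overlapped in HCT, and 8C replicate 2 lay below every 16C array, while the means fell by 2.79-fold in all.

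PMEAMT (AT1G48600), an N-methyltransferase, acts in making the choline headgroup used for phosphatidylcholine, a main membrane lipid. It read 10.11, 11.12 and 10.52 in 2C, 10.53, 10.71 and 9.82 in 4C, 9.16, 8.51 and 9.59 in 8C, and 9.14, 8.88 and 8.31 in 16C. Its drop was concentrated between 4C and 8C, at -1.27 log2, against -0.23 and -0.31 at the first and last steps, and the 2C mean was 3.51 times the 16C mean.

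LBD16 (AT2G42430) is a transcription factor of the LATERAL ORGAN BOUNDARIES DOMAIN family that acts downstream of auxin when lateral roots are started. Its signal was 9.84, 9.08 and 8.35 in 2C, 8.25, 7.90 and 8.05 in 4C, 7.55, 7.70 and 7.63 in 8C, and 7.11, 7.17 and 7.82 in 16C. The first 3 classes did not overlap, whereas 16C replicate 3 was higher than all 8C arrays. The largest step was the first, -1.02 log2, and the fall from 2C to 16C was 3.3-fold. ZAP1 (AT2G04880), the transcription factor WRKY1, fell in nearly even steps of -0.26, -0.38 and -0.33, from 9.97, 9.51 and 9.48 in 2C to 8.58, 8.38 and 9.08 in 16C.

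PWD (AT5G26570) encodes phosphoglucan water dikinase, which phosphorylates starch before its breakdown. It stood at 7.60, 7.11 and 6.55 in 2C, 6.60, 6.01 and 6.11 in 4C, 6.17, 5.89 and 5.54 in 8C, and 5.28, 5.39 and 6.14 in 16C, a fall of 2.79-fold in which every neighbouring pair of classes overlapped. PDF1B (AT5G14660), a peptide deformylase that trims new proteins inside organelles, had the most even steps of the 9, -0.27, -0.31 and -0.30. Its values went from 6.74, 6.68 and 5.85 in 2C to 5.43, 5.66 and 5.56 in 16C. SDH1-1 (AT5G66760), the flavoprotein subunit of mitochondrial succinate dehydrogenase, went from 8.67, 9.13 and 8.48 in 2C to 7.96, 8.04 and 7.70 in 16C, 1.81-fold lower.

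ATB2 (AT1G60710), which encodes a protein of the aldo-keto reductase family, was the only one of the 9 with all 12 arrays in order. The 2C arrays read 9.05, 9.14 and 9.13, the 4C arrays 8.65, 8.48 and 8.64, the 8C arrays 8.12, 7.46 and 8.33, and the 16C arrays 7.28, 7.37 and 7.22. The spread was widest in 8C. Unlike most members, it dropped most at the last doubling, with steps of -0.51, -0.62 and -0.68 log2, to 3.52-fold below its 2C mean.

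The largest fall of all was that of AT1G60750. It read 9.97, 9.51 and 7.98 in 2C, 7.13, 8.07 and 6.20 in 4C, 5.94, 5.43 and 5.82 in 8C, and 5.47, 5.49 and 5.08 in 16C. The 2C mean was 13.9 times the 16C mean, and most of the difference was gone by 8C, with steps of -2.02, -1.41 and -0.38. AT3G54390 came next, with 7.36, 6.47 and 6.56 in 2C, 6.38, 5.75 and 5.49 in 4C, 4.76, 4.61 and 4.75 in 8C, and 4.54, 4.46 and 4.26 in 16C, a 5.19-fold fall without any overlap. AT1G25230 fell 5.15-fold, from 11.00, 10.32 and 10.13 in 2C through 10.21, 10.12 and 9.78 in 4C to 8.60, 8.25 and 8.75 in 8C and 8.20, 8.17 and 7.98 in 16C. Its step between 4C and 8C, -1.51 log2, was the largest of any member at that doubling.

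AT3G62860 was the brightest of the members with a large fall. Its arrays read 12.23, 12.05 and 11.60 in 2C, 11.32, 11.61 and 10.98 in 4C, 10.15, 10.27 and 10.54 in 8C, and 9.74, 9.80 and 9.69 in 16C, and the 4.64-fold fall was shared by all steps (-0.66, -0.98 and -0.57). The remaining members among the 12 largest falls lay between 3.3-fold and 3.93-fold. In AT2G34300 the 2C arrays read 8.10, 9.50 and 9.34 and the 16C arrays 7.29, 7.17 and 7.06, and in AT5G24760 they read 10.56, 9.81 and 9.20 against 8.48, 8.40 and 7.43. Both dropped mainly from 4C to 8C, at -1.24 and -1.17. AT5G01210 and AT3G43540 fell by 1.79 and 1.74 log2.

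**Figure D3:**
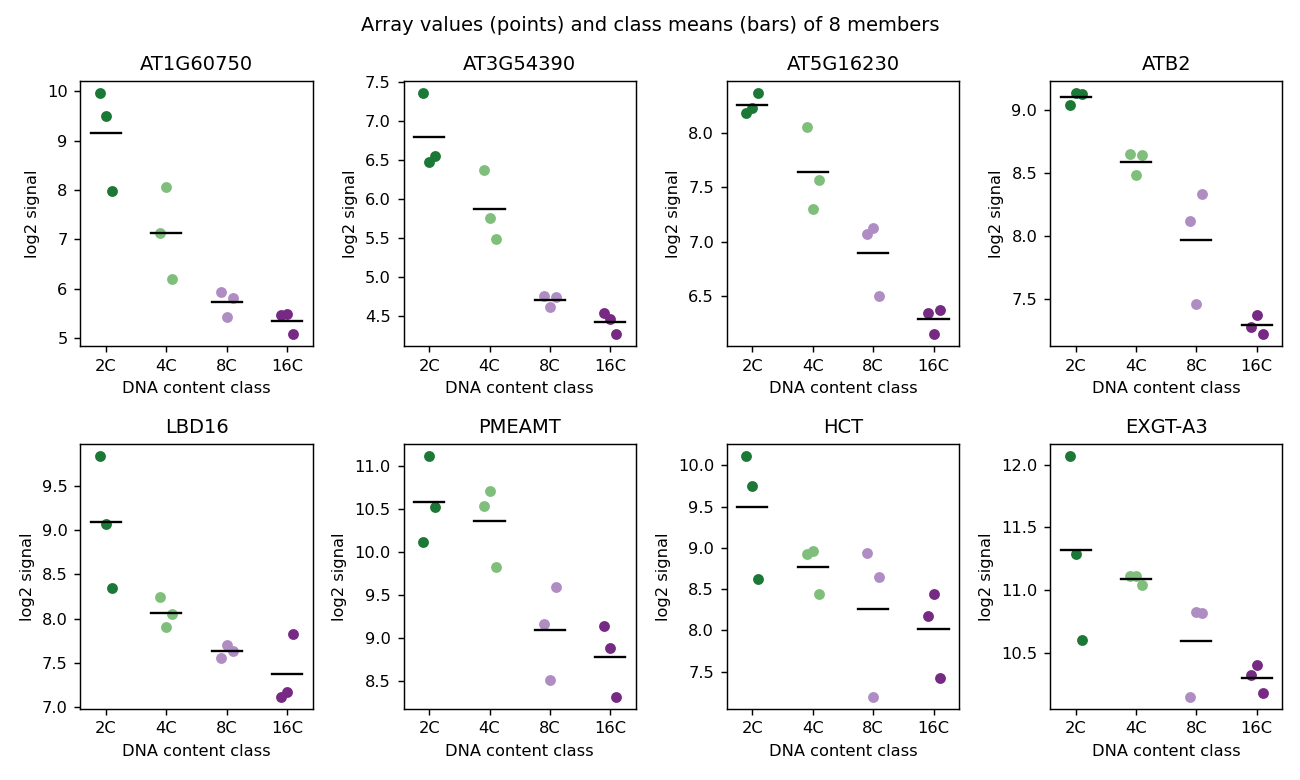
Log2 signal (vertical axis, a separate scale in each panel) of 8 members on the 3 arrays of each DNA content class (points), with class means as black bars. AT3G54390, AT5G16230 and ATB2 show no overlap between neighbouring classes, whereas HCT overlaps at every step and LBD16 has 1 high 16C array.

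Among the 17 members with a fall of at least 1.5 log2, the most even were AT5G42690, AT5G16230 and ATB2. AT5G42690 lost 0.57, 0.53 and 0.59 log2 in turn, shown by 9.44, 8.59 and 8.49 in 2C, 8.56, 8.47 and 7.77 in 4C, 7.51, 7.65 and 8.04 in 8C, and 7.22, 7.10 and 7.11 in 16C. AT5G16230 went from 8.19, 8.23 and 8.37 in 2C to 8.05, 7.30 and 7.56 in 4C, 7.07, 7.13 and 6.50 in 8C and 6.34, 6.15 and 6.37 in 16C, 3.93-fold in all. Other members were less even. Examples chosen after their values were seen are AT3G62510 and AT4G17350, which lost 1.11 and 1.02 log2 between 2C and 4C and less than 0.3 at each later step, and AT5G23430, which lost most, 0.62 log2, between 8C and 16C. All 3 steps were larger than the gene's own pooled SD within classes in 17 of the 65 members.

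At the edge of the rule, the members with the smallest qualifying step were AT2G37500, with -0.201 at the first doubling, and AT1G35612 and SDH1-1, each with -0.206 at the last. Just outside it lay AT3G47210 and AT3G06770, with -0.1997 and -0.1987 at the first step, and CHR17, with -0.1993 at the last. The differences between these sets of 3 are far smaller than the SDs within classes, so the edge of the group is not sharp.

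How much each member depended on single arrays was counted by leaving out the 12 arrays in turn and applying the rule to the rest. It was met every time by 8 members: AT1G60750, AT3G54390, AT3G62860, AT5G16230, ATB2, AT5G42690, AT3G04890 and AT1G65070. A further 10 met it in 11 of the 12 cases, the median member met it in 10, and 32 members met it in 9 or fewer. Leaving out 2C replicate 1 or 4C replicate 3 removed the most members, 22 each, and leaving out 2C replicate 3 removed 3.

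A comparison on arrays that the choice did not use was made by applying the rule to 2 arrays per class and reading the steps in the arrays of the number left out. With the arrays numbered 1 left out, 64 probe sets were chosen, and 20 of them (31.25%) fell at every step in the unused arrays, against 5.24% of all single-gene probe sets. With number 2 left out, 24 of 50 (48.0%) did so, against 5.57%, and with number 3 left out, 25 of 112 (22.3%), against 4.11%. A fall of at least 0.2 log2 at each step was seen in the unused arrays for 10, 8 and 5 of them. The wider contrast came through more often: the unused 16C array lay below the unused 2C array in 52 of 64, 50 of 50 and 103 of 112, while the shares over all single-gene probe sets were 44.8%, 44.7% and 41.7%. These are counts without a test, and the labels do not tie the arrays of a number together. Same-numbered arrays still deviated alike in part, by the correlation of their deviations from class means. It was 0.100 to 0.435 for 2C with 4C, 0.162 to 0.489 for 4C with 16C and -0.061 to 0.325 for 2C with 16C. For pairs with 8C it ran from -0.487 to 0.140.

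The last doubling came out differently between the choices. In the unused arrays the median 16C minus 8C difference of the chosen genes was -0.25 with number 1 left out and -0.15 with number 2 left out, and 71.9% and 70.0% of the chosen genes were lower in 16C. With number 3 left out it was 0.05, and 43.75% of the chosen genes were lower in 16C than in 8C, against 50.8% of all single-gene probe sets. Since 16C replicates 1 and 2 are the unusually similar arrays, the choice made without number 3 rests on those 2 at 16C. The choices made without number 1 or 2 keep 1 of them and are read on the other. Their unused 16C array is thus close to an array already used (correlation 0.996), and their last step is no separate check. This bears on their counts at every step as well. With number 3 left out the unused 16C array was not of that pair, and there the fall at the last step did not recur. The step from 4C to 8C was lower in 78.1%, 98.0% and 78.6% of the chosen genes, and the step from 2C to 4C in 60.9%, 74.0% and 82.1%.

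**Figure D4:**
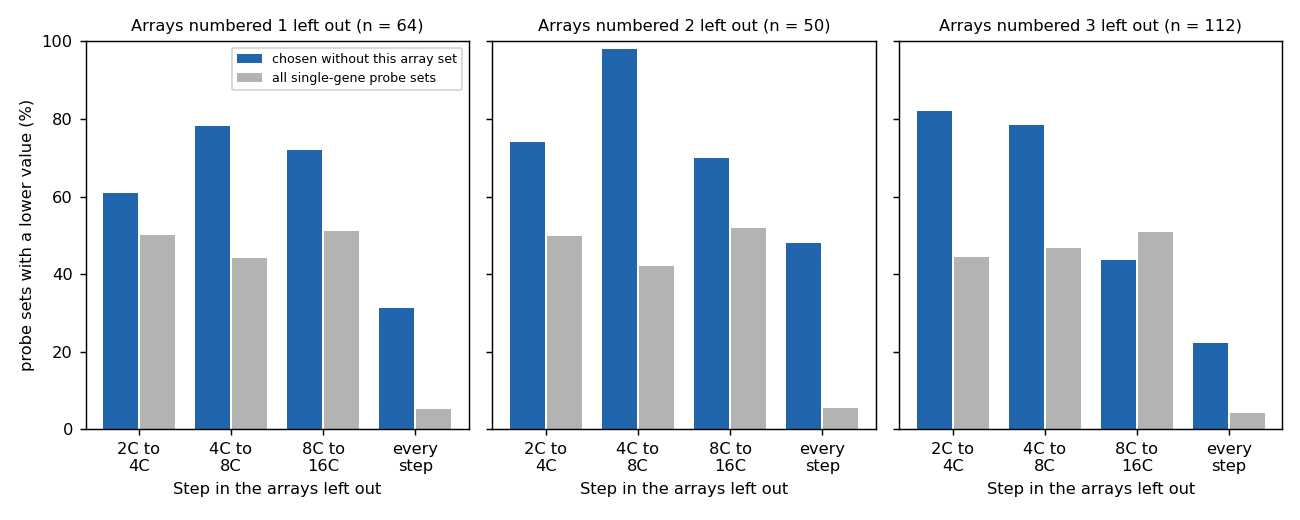
Share of probe sets (%, vertical axis) with a lower value in the higher class in the arrays left out, at each step and at every step, for genes chosen without those arrays (blue) and for all single-gene probe sets (grey); the panels leave out the arrays numbered 1, 2 and 3. The blue bars exceed the grey ones except at 8C to 16C with number 3 left out, where they are 43.75% and 50.8%.

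Few of the probe sets with a fall as large as the members' met the rule at every doubling. Of the 13513 single-gene probe sets, 741 had separate 2C and 16C arrays and a 2C minus 16C difference at least as large as the smallest of a member. The 65 members, which meet these limits by construction, are 8.77% of these 741. Of the 676 others, 608 fell short at the last step, and for 460 it was the last step alone. In 471 of the 676 the 16C mean was above the 8C mean. The first step was short in 152 and the second in 66. Their median fall, 1.15 log2, was close to the 1.18 of the members, with the same lower limit set on both.

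Genes of DNA replication, the histones and genes of mitosis were looked at beside the members. The probe table names few of them: 5 of the 39 listed genes of replication and chromatin assembly had a single-gene probe set, 10 histone genes, and 7 of 23 genes of mitosis and cytokinesis, and the members include none of these. They were tested with limma for a linear slope per doubling, a test that called 11.7% of all 22746 probe sets falling and 9.85% rising at an adjusted p under 0.05. Of the replication genes 3 of 5 fell along the slope: PRL (MCM7), a subunit of the helicase that opens DNA for copying, and POLA3 and ICU2, which belong to DNA polymerase alpha. The median slope of the 5 was -0.49, against 0.02 over all probe sets.

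PRL read 8.23, 7.96 and 6.85 in 2C and 5.64, 5.55 and 5.38 in 4C, then 4.27, 4.34 and 4.30 in 8C and 5.05, 4.90 and 4.71 in 16C. Its slope was -0.96 ± 0.09 log2 per doubling (SE, limma, adjusted p = 0.000122), yet the 16C arrays all lay above the 8C arrays. POLA3 had a slope of -0.61 ± 0.10 (limma, adjusted p = 0.00234) and ICU2 one of -0.49 ± 0.09 (limma, adjusted p = 0.00344). Their class means ended at 5.07 and 5.34 in 8C and 16C for POLA3, and at 3.87 and 3.89 for ICU2.

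Of the 10 histone genes 6 fell along the slope, with a median slope of -0.32 over the 10. They were HTB4, HTB1, HTB11 and AT2G37470, listed as H2B genes, and AT1G06760 and AT2G30620, listed as linker histones. In 18 other settings of the fit, the call was kept in 6 for HTB11, 12 for HTB1 and 14 for AT2G30620. HTB4 had class means of 8.21 ± 0.41, 8.00 ± 0.14, 6.85 ± 0.17 and 7.41 ± 0.21 (SD, n = 3) and a slope of -0.35 ± 0.06 (limma, adjusted p = 0.0033). Of the 7 genes of mitosis and cytokinesis 2 fell along the slope, the Aurora kinase gene AUR1 and AT2G36200, listed as a kinesin-5 gene. Both had their highest mean in 4C. The class means from 2C to 16C were 7.32, 7.66, 6.13 and 6.51 for AUR1 and 7.39, 8.88, 5.29 and 5.93 for AT2G36200. From 2C to 4C, 0 of the 7 were called rising and 0 falling, and from 4C to 8C, 5 of the 7 fell.

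At single steps the same fit called 0.251% of probe sets falling and 0.352% rising from 2C to 4C, 5.17% falling and 4.73% rising from 4C to 8C, and 0.0528% falling and 0.207% rising from 8C to 16C. Without 2C replicate 3 the balance from 2C to 4C turned, from 57 falling and 80 rising to 276 and 162. Across all lists, 15 genes that are no members fell along the slope. In 14 of these the 16C mean was above the 8C mean, and the remaining gene, EXLA2, dropped by 0.20 log2 at the last step, just short of the rule.

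Most wall-loosening genes had no call. Of 29 measured expansin and xyloglucan enzyme genes, EXGT-A3 alone is a member. Of the other 28, 4 fell along the slope and 3 rose, shares close to those over all probe sets, and their median slope was 0.02. The falling ones were EXLB1, EXLA2, XTH21 and XTH20, the last a call kept in 5 of 17 other settings of the fit. EXLB1, an expansin-like gene, went from 7.86, 8.75 and 7.53 in 2C to 6.31, 6.17 and 5.68 in 4C, 5.31, 5.50 and 5.23 in 8C and 5.55, 5.45 and 5.41 in 16C, with a slope of -0.84 ± 0.09 (limma, adjusted p = 0.000172). The rising ones were EXPA7, EXPA18 and XTH19. EXPA18 kept a level near 5.4 up to 8C and reached 6.17 ± 0.12 (SD, n = 3) in 16C, with a slope of 0.21 ± 0.03 (limma, adjusted p = 0.00225).

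In the auxin list, 3 of 14 genes were measured and LBD16 is the member. GH3.3, whose product links auxin to amino acids, rose along the slope (0.59 ± 0.19, limma, adjusted p = 0.047), with class means of 6.78 ± 1.38, 6.20 ± 0.09, 8.52 ± 0.72 and 7.97 ± 0.44 (SD, n = 3). That call was kept in 8 of 18 other settings of the fit. LBD29 had a slope of 0.08 ± 0.06 (limma, adjusted p = 0.404). Of the endocycle regulators SIM alone was measured, with a slope of 0.03 ± 0.09 (limma, adjusted p = 0.862). For the 3 measured genes of the root meristem and ground tissue list, JKD, BBM and AT1G62500 (CO2), the adjusted p of the limma slope lay between 0.0916 and 0.92.

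The label of the sorted cells was looked at on the measured cell type markers, which are too few to check it. JKD, a ground tissue transcription factor, read 5.51 ± 0.17, 5.94 ± 0.13, 6.34 ± 0.12 and 5.70 ± 0.12 from 2C to 16C (SD, n = 3). The native CO2 gene, whose promoter drove the reporter, was dim in all classes, with means of 4.02 to 4.25. EXPA7, a root hair gene, read 4.47, 4.40, 4.41 and 5.21, and LHCB4.1, a chlorophyll-binding protein of green tissue, read 8.98, 8.50, 6.93 and 8.27. The percentiles of LHCB4.1 were 92.2, 89.2, 73.1 and 87.3. Of 16 listed markers of endodermis, stele, root cap and pericycle none had a single-gene probe set in the probe table. The part of other cell types in the falls of the members was not tested.

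Class means of technical measures and of plastid transcripts differed as well, but not in 1 shared order. The mean of 24 probe sets for the bacterial poly-A transcripts added before amplification was 10.9, 10.5, 9.05 and 8.98 from 2C to 16C. The order of the last 2 classes rested on 1 array. Within 8C, replicate 3 had a spike mean of 10.3 against 8.61 and 8.24 in the others. It also had the highest mean of the members, 7.09 against 7.04 and 6.99. Without that array, an alternative chosen after seeing the data, the 8C means were 8.43 for the spikes and 7.02 for the members. In 4C, replicate 1 was likewise highest in both. In 2C and 16C, replicate 2 had the highest spike means, 11.5 and 9.23. Its member means there, 8.12 and 6.69, lay below the 8.28 and 6.71 of replicate 1. The actin 3′ minus 5′ difference, a measure of how far amplified transcripts are shortened, was 4.89, 4.34, 3.83 and 4.21 log2 from 2C to 16C, and that of GAPDH was 3.05, 3.19, 3.17 and 3.50. The median of 69 plastid genome transcripts was 7.98, 6.97, 6.76 and 7.46. The part of these differences in the falls of the members was not tested.

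**Figure D5:**
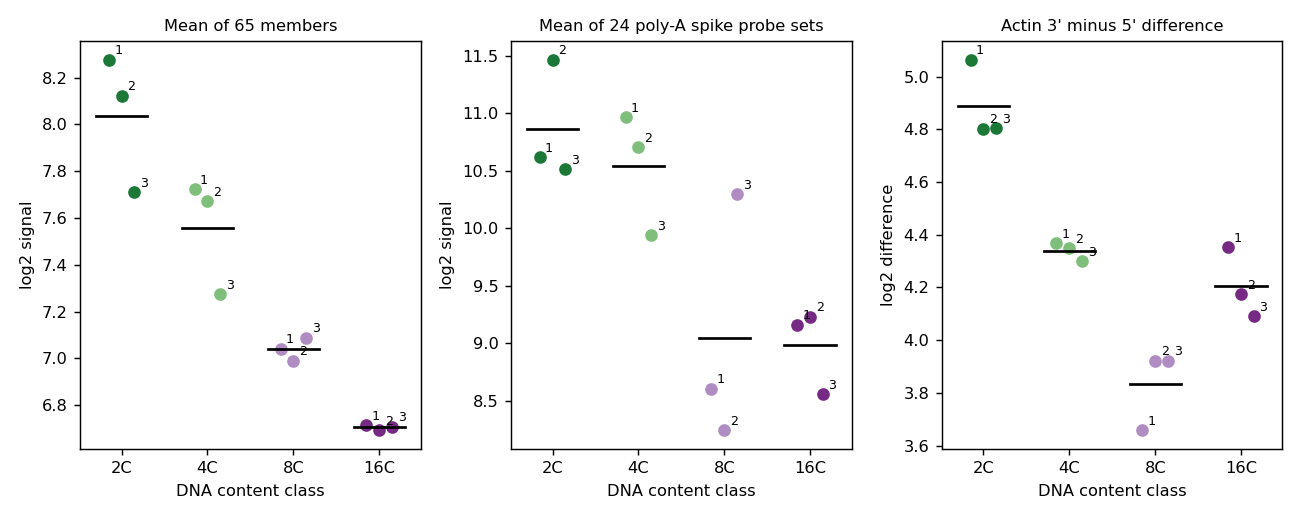
Values of the 12 arrays (points, numbered by replicate) and class means (bars) for the mean log2 signal of the 65 members, the mean log2 signal of 24 poly-A spike probe sets and the actin 3′ minus 5′ log2 difference, by DNA content class. Members decline at each step, as the rule required, and actin is lowest in 8C. In 8C, replicate 3 has the highest spike mean, 10.3, and a member mean of 7.09.

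Along the genome the members lay on all 5 nuclear chromosomes. Chromosome 5 held 22 of them (33.8%, against 22.3% of all single-gene probe sets), chromosome 1 held 18 (27.7% against 25.5%), chromosome 3 held 9 (13.8% against 20.3%), and chromosomes 2 and 4 held 8 each. In the TAIR10.1 gene order, 4 members lay within 10 places of another member. ATB2 and AT1G60750 have 3 protein-coding genes between them, and HCT and AT5G48960 have 4. The genes around them did not share the pattern: AT1G60690, near the first pair, had class means of 5.14, 5.56, 4.25 and 4.39, and AT1G60730 stayed between 4.36 and 4.60. AT5G48940, between HCT and AT5G48960, had means of 5.67, 5.68, 4.75 and 5.38.

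Only AT1G33680 among the member genes is represented by a further single-gene probe set. The member probe set fell from 7.68, 7.64 and 6.87 in 2C to 6.26, 6.57 and 6.61 in 16C. The other probe set of the gene was dim, with class means of 4.12, 4.23, 4.32 and 4.14, and did not show the fall.

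The rule would admit 59 further probe sets that the table ties to no gene (58) or to several (1), and 124 of the 22746 met it in all. The opposite rule, a rise of at least 0.2 log2 at every doubling with all 16C arrays above all 2C arrays, was met by 52 single-gene probe sets, which rose by a median of 1.85 log2. The members were chosen on the deposited values. With cyclic loess normalisation and with scaling to 4 reference genes, the median 16C minus 2C difference of the 65 was -1.13 and -0.93. All 65 kept a negative difference at each step. With the reference genes this was fixed in advance, because that scaling moved every probe set alike at a step, by less than the 0.2 log2 the rule required. The reference genes moved the median 16C minus 2C difference of all probe sets by 0.25 log2, from 0.03 to 0.29, and with them 17 probe sets met the rule, all of them members. With cyclic loess 40 met it, 37 of them members.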

How the data were processed

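Nuclear RNA of 4 DNA content classes was measured on 12 ATH1 arrays. The authors deposited log2 signals per probe set, made with RMA, per the submitters' processing notes; its version is not given in the sources used here. RMA corrects the background and makes the arrays' distributions alike. That the scale is log2 follows from the range of the values, with array medians of 5.22 to 5.36. Detection calls were not used here, so dim values have no lower bound, and precision is set by having 3 arrays per class.

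The 64 control probe sets were left out, which left 22746, of which 13513 name a single gene in the platform annotation, 503 several and 8730 none. Of the 13513, 13436 matched the TAIR10.1 gene table, used for names and gene order. Class means and the rule were computed with pandas 2.3.3 in Python 3.11.15. List genes were tested with R 4.3.3 and limma 3.58.1, using lmFit and eBayes, over all 12 arrays without a block, with Benjamini-Hochberg adjustment over all 22746 probe sets and a threshold of 0.05. Errors of slopes are moderated standard errors. All p-values rest on the spread among arrays labelled as biological replicates. The fit was tested on simulated data.

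The members and the gene lists were chosen with earlier results of these data known. Named members are the 12 with the largest fall, the 8 with the most even steps among falls of at least 1.5 log2, those with a symbol, in a list, with 12 ordered arrays, with a neighbouring member, or nearest the step threshold on either side. Of each list, up to 4 genes were named by the smallest p on the slope, and further ones only to complete a count. Replicate numbers were not taken as pairs. Over 18 pairs of same-numbered arrays, the correlation of deviations from class means was above 0.1 in 9 and ran from -0.487 to 0.489. The highest values lay among 2C, 4C and 16C, whereas pairs with 8C ran from -0.487 to 0.140. Alternatives were other step sizes, medians, cyclic loess, scaling to reference genes, array weights, an intensity trend, dim probe sets left out, a block for the replicate number and leaving out each array.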

Additional observations from a re-analysis of the deposited data

How the results depend on the processing

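The number of genes that fall at every doubling depends on the size of step asked for: 197 with steps of 0.1 and 14 with steps of 0.3, against 65, with a median fall of 1.56 log2 at 0.3 against 1.18. It was 40 with cyclic loess, 17 with reference genes and 6 when neighbouring classes had to lie apart. Leaving out single arrays gave 51 to 97, the highest without 16C replicate 3, and the share that fell again in unused arrays ran from 22.3% to 48.0%, against 30.5% over all 3 choices. In limma, falling along the slope were 2653 probe sets, 1456 with reference genes and 1668 to 3050 with an array left out, lowest without 16C replicate 2 (1668) or 1 (1723). Of slope calls, 54.2% were falling as deposited and 26.7% with reference genes. From 8C to 16C these shares were 20.3% and 2.11%. From 2C to 4C, 57 fell, 36 with array weights and 12 to 276 with an array left out, highest without 2C replicate 3. From 4C to 8C, 1176 fell, 1788 with array weights and 483 to 1630 with an array left out. From 8C to 16C, 12 fell, 355 with array weights, 2 with reference genes and 0 to 62 with an array left out. The 0 arose in limma without 16C replicate 1 or 2 or 8C replicate 1 or 3, where 876 to 1167 had an unadjusted p under 0.05. The cause was not tested. The 15 falling list genes were 11 to 19 under every alternative run. Among them, the call of HTB11 was kept in 6 of 18 alternatives, HTB1 in 12, AT2G30620 in 14 and XTH20 in 5 of 17.

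With the replicate block, 2692 fell along the slope, 35 from 2C to 4C, 1235 from 4C to 8C and 7 from 8C to 16C, and 14 list genes fell. In 9 of 18 pairs, an array's deviations correlated better with the same-numbered array of the other class than with that class's other arrays. This was compared from the lower class of each pair only. The share of promoters with a motif was planned and not run, because no promoter sequences were used here. In 16C, 8 members ended among the dimmest 40% of probe sets, and whether dim signal limited the size of their falls was not tested.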
